A study of Mus musculus with 6 samples.

Results

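The genes described here encode the enzymes of the tricarboxylic acid (TCA) cycle, the pyruvate dehydrogenase (PDH) complex and the carriers and enzymes of the malate-aspartate shuttle, with pyruvate carboxylase and the malic enzymes beside them. Their 33 symbols were taken from a fixed list and looked up in the soleus (Sol) muscle count table, and all 33 were found among its 24411 genes. Each of the 33 had enough counts to enter the test, which covered 12828 genes. The 33 genes lie on 16 chromosomes of the mouse genome (GRCm38), with no more than 4 of them on any 1 chromosome.

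Sol muscles came from 3 wild type (WT) and 3 LSD1-mKO C57BL/6 mice, each giving 1 library. LSD1-mKO mice carried Lsd1 alleles flanked by loxP sites and a CreERT2 transgene under the human ACTA1 promoter. By the study's account, tamoxifen then removes LSD1 from muscle cells during and after their differentiation. The study names blood-forming and vascular cells as the probable source of the little LSD1 that remained in muscle tissue. WT mice carried the floxed alleles without CreERT2. Both genotypes entered cages with a running wheel at 8 weeks of age, were given tamoxifen at 75 mg/kg on 5 days once the first 3 days were over, and had the wheel for 38 days in all (voluntary wheel running, VWR). The study's methods add that mice were kept off the wheel and fasted before tissue was taken. No sedentary mouse was analysed here, so the values compare genotypes after running and hold no response to running itself. The libraries held 8940206, 10366443 and 10989846 estimated counts in WT replicates 1, 2 and 3. Those of LSD1-mKO replicates 1, 2 and 3 held 13563881, 13798059 and 10984664.

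The PDH complex turns pyruvate into acetyl-CoA in the mitochondrion, and citrate synthase joins acetyl-CoA to oxaloacetate to start the TCA cycle, which yields the NADH and succinate that feed the respiratory chain. The malate-aspartate shuttle carries the reducing power of cytosolic NADH into the mitochondrion. Slow, oxidative muscles such as Sol are known for a high content of these enzymes, and endurance exercise is known to raise it.

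Kdm1a, the gene of LSD1, was measured first as a check of the genotype labels. Its level was 40.5, 38.2 and 33.6 counts per 1000000 after TMM normalization (CPM) in the WT mice against 14.6, 16.6 and 16.6 CPM in the LSD1-mKO mice, for a log2 fold change of -1.23 (SE 0.11, edgeR adjusted p = 0.0160). The libraries therefore followed their labels. All fold changes below are LSD1-mKO over WT, from edgeR's quasi-likelihood test, and adjusted p-values are Benjamini-Hochberg values over the 12828 genes.

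The labelled tissue was also checked. The 6 skeletal muscle markers summed to between 59017 and 74305 CPM per mouse, led by Acta1. Markers of other cells were present at lower levels. The 5 fibroblast markers, led by Dcn, summed to 1286, 3320 and 4233 CPM in the WT mice and to 2713, 1287 and 1423 CPM in the LSD1-mKO mice. The 5 immune markers, led by Lyz2, summed to 80.3, 265 and 206 CPM in WT and to 164, 85.1 and 119 CPM in LSD1-mKO. Both lists were thus lowest in WT replicate 1 and LSD1-mKO replicate 2, and highest in WT replicates 2 and 3. The 4 fast glycolytic fiber genes, led by Actn3, summed to 342, 149.5 and 507 CPM in WT and to 716, 252 and 601 CPM in LSD1-mKO. Actn3 itself measured 91.9, 63.6 and 198 CPM in WT and 497, 165 and 341 CPM in LSD1-mKO, with overlap and a log2 fold change of 1.50 (SE 0.48, edgeR unadjusted p = 0.0128, adjusted p = 0.636). Of the other genes of that list, Mybpc2 had a higher fitted level (0.26), and Myh4 (-0.36) and Pvalb (-0.49) had lower ones, for a list median of -0.048. For the other lists the sum per mouse ran from 579.9 to 679 CPM for 8 adipocyte genes (led by Fabp4), 8.46 to 16.4 CPM for 3 brown adipocyte genes (led by Cidea), 201 to 535 CPM for 5 red blood cell genes (led by Hba-a2), 404 to 599 CPM for 5 endothelial genes (led by Cdh5) and 133 to 158 CPM for 4 Schwann cell genes (led by Pmp22). Of the markers, the red blood cell gene Hba-a1 was the other one at an unadjusted p under 0.05 (log2 fold change 3.95, SE 1.36, edgeR adjusted p = 0.684), with overlap. The other 4 genes of its list had lower fitted levels and the list median was -0.030. Counts of Hba-a1 were not whole numbers in any library and ran from 0.02 in WT replicate 3 to 2173 in LSD1-mKO replicate 3. Its reads may be split with similar copies. Among these markers Ucp1 was listed at 0 in every library, which allows up to 3 counts in each when counting error alone is considered. In muscle RNA taken in bulk, fewer cells of a type and less RNA per cell cannot be told apart.

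WT replicate 1 stood apart from the other WT mice before any gene of the list was considered by genotype. Per gene, the chi-square between it and WT replicates 2 and 3 was 20.3 and 17.8, against 10.1 between those 2 mice, and its TMM factor was 0.93, against 1.07 and 1.03. LSD1-mKO replicate 1 also differed more from the other mice of its group (16.9 and 13.7) than these did from each other (9.89). WT replicate 1 was the highest of the 6 mice for 16 of the 33 genes (23.4% of all tested genes) and the highest of the WT mice for 28 (40.0% of all tested genes). The median deviation of the 33 genes from their own mean over the 6 mice, in log2 CPM, was 0.14, -0.13 and -0.14 in the WT mice and -0.051, 0.032 and 0.12 in the LSD1-mKO mice. So the members were high together in WT replicate 1 and LSD1-mKO replicate 3 and low together in WT replicates 2 and 3. This order depended on the scaling. WT replicate 1 was highest for 16 of the 33 with DESeq2 size factors and for 15 with upper-quartile factors. It was highest for 5 of the 33 when CPM were computed from the library size alone. In TPM, which divides counts by transcript length and scales each library to 1000000, it was highest for 4 of 33. The part of fibroblast and immune cells, of depth and of this library in the levels was not tested.

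**Figure D1:**
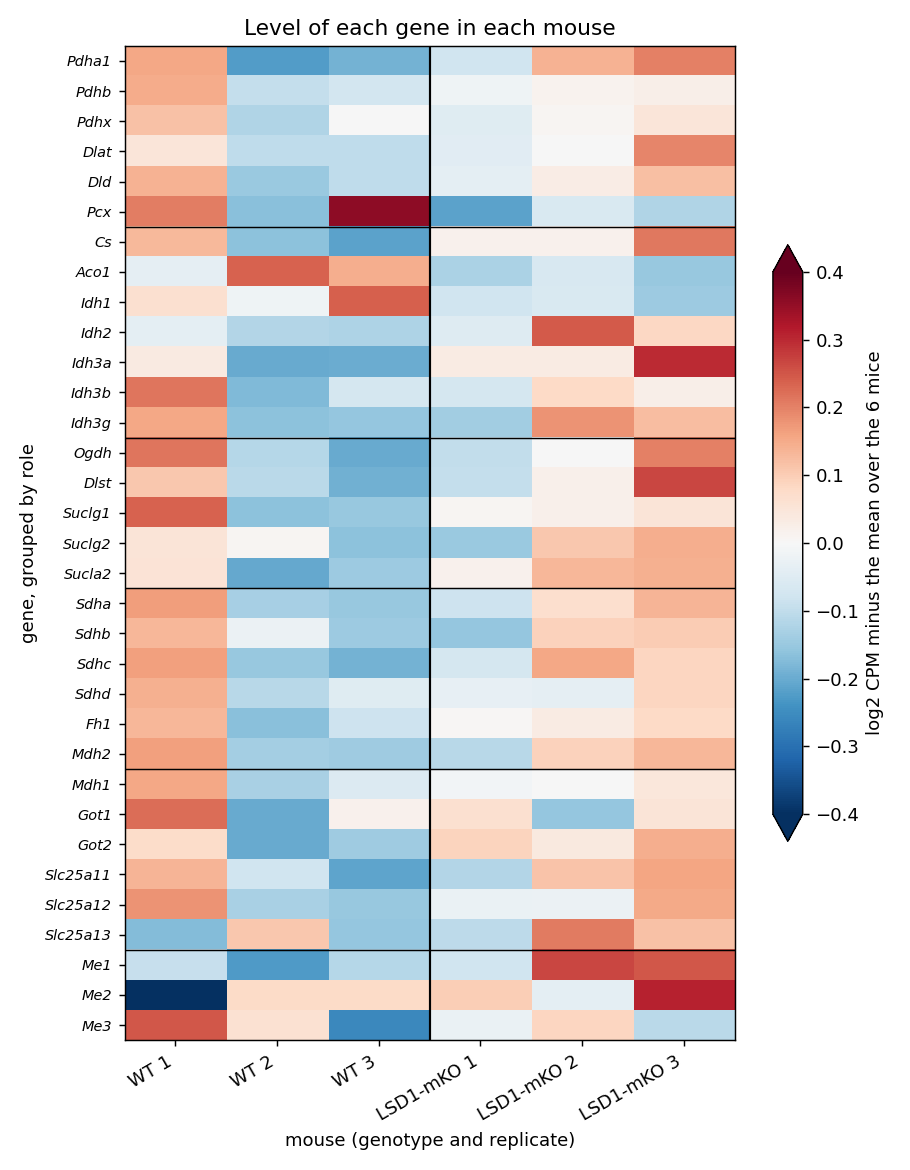
Each row is 1 of the 33 genes and each column 1 mouse; the color gives log2 CPM (TMM) minus the gene's mean over the 6 mice, and horizontal lines part the roles (pyruvate entry, citrate and isocitrate, 2-oxoglutarate to succinate, succinate to oxaloacetate, malate-aspartate shuttle, malic enzymes). The median of a column is 0.14 in WT replicate 1, -0.13 and -0.14 in WT replicates 2 and 3, and -0.051, 0.032 and 0.12 in LSD1-mKO replicates 1, 2 and 3.

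As a list, the 33 genes lay slightly above WT in LSD1-mKO mice, and no single gene passed the threshold. A higher fitted level in LSD1-mKO was found for 28 of 33, where 45.2% of all tested genes had one. The median log2 fold change was 0.073 for the list and -0.020 for all tested genes. The 6 skeletal muscle markers had a median of 0.12, with a higher fitted level for 4 of 6. At an adjusted p under 0.05 edgeR called 0 of the 33, against 0.0156% of all genes, DESeq2 called 0 against 0.327%, and limma voom called 0 against 0.0234%. At an unadjusted p under 0.05 edgeR gave 1 gene higher in LSD1-mKO, Me1, against 3.52% of all genes, and 1 lower, Aco1, against 2.88%. DESeq2 gave 1 higher (2.72% of all genes) and 0 lower (1.78% of all genes). The groups did not overlap, with LSD1-mKO higher, for 1 gene, Me1, against 6.63% of all genes, and with LSD1-mKO lower for 2, Aco1 and Idh1, against 6.1%. These shares are near the background. In TPM, 3 of the 33 were higher without overlap (Idh3a, Sucla2 and Got2) and 2 were lower (Pcx and Idh1). The share of all genes that do not overlap in TPM is not given here, so these 2 counts have no background beside them. Idh2, Idh3a, Sucla2 and Got2 are in a gene cluster that the study drew from these mice and described as upregulated in the knockouts, so the direction of these genes is not independent evidence.

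Without WT replicate 1 the counts of genes higher in LSD1-mKO were larger, and those of lower or called genes were the same or smaller. This mouse was the highest of the WT mice for 28 of these same 33 genes. Leaving it out therefore raises the counts through the choice of mouse, and they are not separate evidence of a difference between genotypes. A higher fitted level was then found for 30 of 33 genes, against 47.4% of all genes, and the median log2 fold change was 0.17. The skeletal muscle markers had a median of 0.18 there, with a higher fitted level for 5 of 6. All LSD1-mKO mice were above both remaining WT mice for 22 of 33 genes, against 15.9% of all genes, and below them for 2 (17.9% of all genes). At an unadjusted p under 0.05 edgeR gave 8 genes as higher, against 6.43% of all genes, and 1 as lower, against 7.98%. The 8 were Pdha1, Cs, Idh3a, Suclg1, Sucla2, Sdhc, Got2 and Me1, with log2 fold changes from 0.19 to 0.33, and the lower gene was Aco1 (-0.30). None of them passed the threshold, since the lowest edgeR adjusted p among the 33 was 0.223, where 0.0229% of all genes passed. In that comparison each of the 5 fibroblast markers was lower in LSD1-mKO at an unadjusted p under 0.05, at log2 fold changes from -1.44 to -0.30, and so were 3 of the 5 immune markers. Other markers at an unadjusted p under 0.05 there were 2 of 5 endothelial, 1 of 8 adipocyte and 1 of 5 red blood cell genes as lower, and 1 red blood cell, 1 brown adipocyte and 1 fast glycolytic fiber gene as higher. With all 6 mice the counts for fibroblast and immune markers were 0 of 5 and 0 of 5, although all 5 markers of both lists had a lower fitted level in LSD1-mKO, at median log2 fold changes of -0.95 and -0.57. With WT replicate 2 or WT replicate 3 left out in its place, 0 of the 33 genes were higher at an unadjusted p under 0.05 (2.97% and 2.34% of all tested genes) and the median log2 fold change was 0.023 and 0.019. Without LSD1-mKO replicate 1 the median was 0.13, and 5 of the 33 genes were higher without overlap (12.7% of all tested genes). Without LSD1-mKO replicate 2 these were 0.068 and 3 (11.2%), and without LSD1-mKO replicate 3 they were 0.026 and 1 (8.93%).

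**Figure D2:**
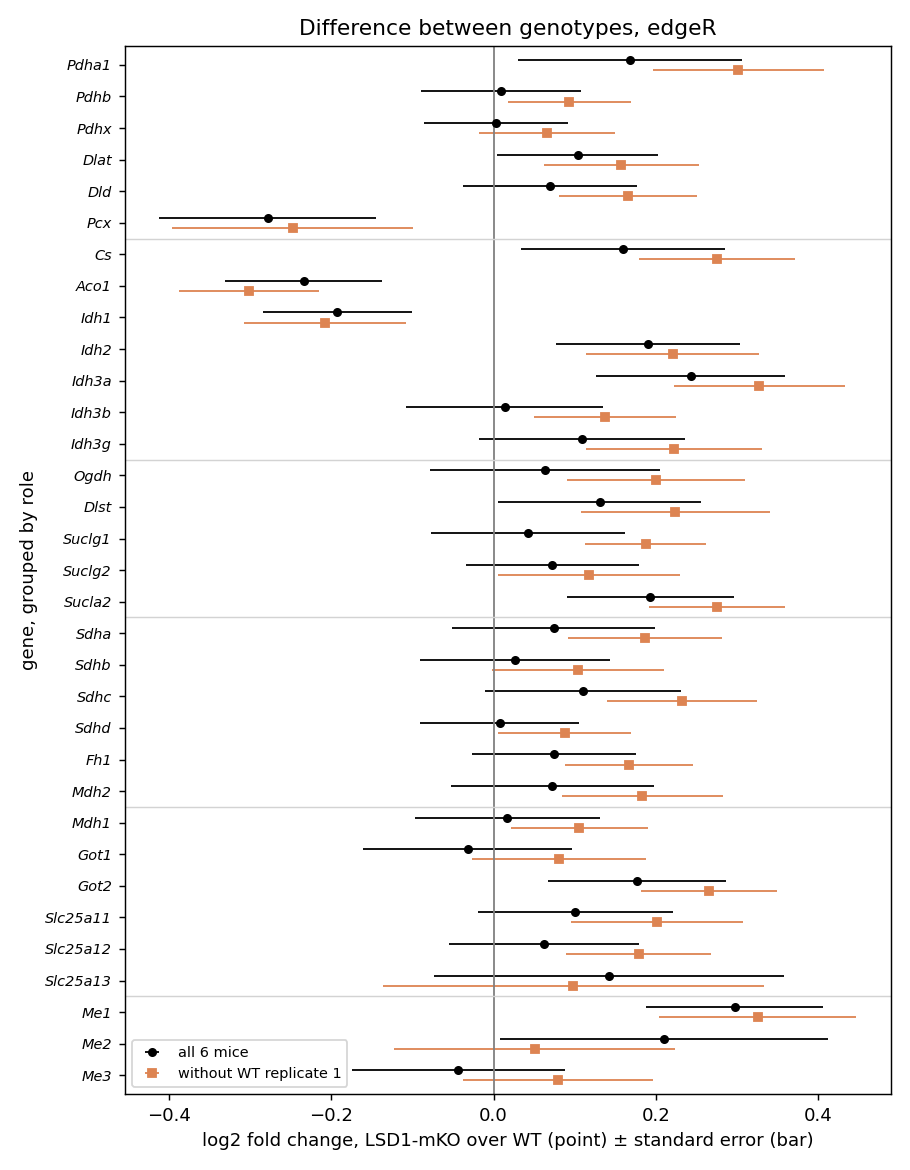
The log2 fold change of each of the 33 genes in LSD1-mKO over WT is shown with its standard error, for all 6 mice (black circles) and without WT replicate 1 (orange squares), in the order of the roles. With all mice 28 points lie above 0, and without WT replicate 1 there are 30, with Pcx, Aco1 and Idh1 below 0 in both. The mouse left out was the highest of the WT mice for 28 of the 33 genes, so its removal moves most points up.

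Pyruvate enters the cycle through the PDH complex, and 5 of its genes were listed here. Pdha1 (chromosome X, 160122209 to 160138413), the catalytic E1 alpha subunit that PDH kinases phosphorylate, measured 1373, 1055 and 1080.3 CPM in WT and 1168, 1357 and 1417 CPM in LSD1-mKO, with a log2 fold change of 0.17 (SE 0.14, edgeR adjusted p = 0.848). Its groups overlapped because WT replicate 1 was second only to LSD1-mKO replicate 3. The log2 fold changes of Pdhb (E1 beta), Pdhx (which anchors E3 in the complex), Dlat (the E2 acetyltransferase) and Dld (E3, shared with the 2-oxoglutarate dehydrogenase complex) lay between 0.003 and 0.10, each near or below its standard error. Reads of Pdha1 may be split with similar copies, as its values were not whole numbers in any of the 6 libraries.

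Pyruvate carboxylase, which makes oxaloacetate from pyruvate, had a lower fitted level in LSD1-mKO mice and did not pass the threshold. Pcx (chromosome 19, 4510472 to 4621752) measured 60.5, 46.8 and 67.3 CPM in WT and 45.3, 50.3 and 48.3 CPM in LSD1-mKO, and its log2 fold change of -0.28 was the lowest of the 33 with all mice (SE 0.13, edgeR adjusted p = 0.766). With 1 mouse left out it ranged from -0.41 (without WT replicate 2) to -0.16 (without WT replicate 3). WT replicate 2 lay within the LSD1-mKO range in CPM and barely above it in TPM (26.82 against 26.80), and the spread was wider in WT (58.2 ± 10.4 CPM, SD, n = 3) than in LSD1-mKO (48.0 ± 2.53 CPM, SD, n = 3).

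Citrate synthase, the entry enzyme of the cycle and a common marker of mitochondrial content, was encoded by Cs (chromosome 10, 128337734 to 128362479). Its level was 1201, 981 and 947 CPM in WT and 1112, 1111 and 1272 CPM in LSD1-mKO. WT replicate 1 lay inside the LSD1-mKO range and the other WT mice below it, for a log2 fold change of 0.16 (SE 0.13, edgeR adjusted p = 0.838). Values of Cs were not whole numbers in any library either.

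The cytosolic enzymes of this step had lower fitted levels in LSD1-mKO mice, and neither passed the threshold. Aco1 (chromosome 4, 40143081 to 40198338), the cytosolic aconitase that also serves as iron regulatory protein, measured 34.6, 41.8 and 39.3 CPM in WT and 32.6, 33.9 and 31.9 CPM in LSD1-mKO. Every LSD1-mKO mouse was below every WT mouse, by a small margin to WT replicate 1, and the log2 fold change was -0.23 (SE 0.097, edgeR unadjusted p = 0.0409, adjusted p = 0.766). On the TPM scale the genotypes overlapped, as they did with the library size alone, and WT replicate 1 was the lowest mouse, with 18.4, 25.9 and 23.1 TPM in WT and 18.6, 19.6 and 18.4 TPM in LSD1-mKO.

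Idh1 (chromosome 1, 65158616 to 65186500), the cytosolic and NADP-dependent isocitrate dehydrogenase, measured 68.7, 65.0 and 77.6 CPM in WT and 62.3, 63.0 and 59.5 CPM in LSD1-mKO. The groups did not overlap, and the mean of LSD1-mKO was 87.5% of the WT mean, with a log2 fold change of -0.19 (SE 0.092, edgeR adjusted p = 0.766). The values were also apart in TPM and with the library size alone. Without WT replicate 3, the highest mouse, the log2 fold change was -0.12.

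The question asked of the mitochondrial isocitrate dehydrogenases was whether the NADP-dependent Idh2 moved with the NAD-dependent enzyme, which is built from the catalytic Idh3a and the regulatory Idh3b and Idh3g. Idh2 (chromosome 7, 80094846 to 80115392) measured 1438, 1360.05 and 1357 CPM in WT and 1426, 1750.4 and 1566 CPM in LSD1-mKO. LSD1-mKO replicates 2 and 3 were the highest mice and LSD1-mKO replicate 1 was just below WT replicate 1. The log2 fold change was 0.19 (SE 0.11, edgeR adjusted p = 0.781).

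Idh3a (chromosome 9, 54586334 to 54604661) measured 569, 483 and 484 CPM in WT and 568, 567 and 682 CPM in LSD1-mKO. LSD1-mKO replicate 3 was highest, and WT replicate 1 was just above the other LSD1-mKO mice. Its log2 fold change of 0.24 was the largest of the 4 mitochondrial isocitrate dehydrogenase genes with all mice (SE 0.12, edgeR adjusted p = 0.766). Without LSD1-mKO replicate 3 it was 0.15, and that of Idh2 was 0.20. In TPM its groups did not overlap, at 450.4, 445 and 422 in WT and 482, 486 and 585 in LSD1-mKO.

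The regulatory subunits were closer to WT. Idh3b (chromosome 2, 130279309 to 130284547) measured 794, 605 and 651 CPM in WT and 652, 723 and 695 CPM in LSD1-mKO, and the LSD1-mKO values lay inside the WT range, with a log2 fold change of 0.014 (SE 0.12, edgeR adjusted p = 0.985). Idh3g (chromosome X, 73778963 to 73786897) measured 420.01, 337 and 339 CPM in WT and 343, 427 and 412 CPM in LSD1-mKO, with a log2 fold change of 0.11 (SE 0.13, edgeR adjusted p = 0.890). WT replicate 1 and LSD1-mKO replicates 2 and 3 were the high mice of Idh3g, and the remaining 3 mice lay together below them. The Idh3b difference changed sign without WT replicate 2, WT replicate 3 or LSD1-mKO replicate 2, where it was -0.067, -0.020 and -0.015.

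Per length, Idh2 was the most abundant of these genes, and WT mice had 1762 ± 85.3 TPM (SD, n = 3), LSD1-mKO mice 1997 ± 213 TPM (SD, n = 3). Idh3b, Idh3g and Idh3a followed at 933 ± 61.3, 607 ± 35.4 and 439 ± 14.9 TPM (SD, n = 3) in WT. Idh1 was far lower, with 68.0 ± 7.49 TPM (SD, n = 3) for WT mice, and LSD1-mKO mice had 59.0 ± 1.67 TPM (SD, n = 3). The order of the Idh3 subunits was the same in each mouse, although Idh3a is known to be present in more copies than the others in the enzyme.

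The ratio of Idh2 to the mean of Idh3a, Idh3b and Idh3g in TPM, taken within each mouse, was 2.41, 2.87 and 2.76 in WT and 2.78, 3.05 and 2.68 in LSD1-mKO. WT replicate 1 had the lowest ratio and LSD1-mKO replicate 2 the highest, and the remaining mice of both genotypes overlapped. As a log2 value the WT ratio was 1.42 ± 0.13 (SD, n = 3) and the LSD1-mKO ratio was 1.50 ± 0.094 (SD, n = 3), a difference of 0.084 that was smaller than either SD (exact permutation test, 2-sided, p = 0.5, adjusted p = 0.709 over 13 ratios). Over 3 mice against 3 this test cannot give a p under 0.1. Set against Idh3b alone the difference was 0.16, and against Idh3a alone it was -0.056 and against Idh3g alone 0.076, so that its sign followed the subunit chosen. Without WT replicate 1 the difference was 0.0091. The ratio itself depended on the transcript length assumed, and its mean over the 6 mice was 2.75 with the longest coding transcript and 3.81 with merged exons.

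Within the Idh3 complex the ratio of Idh3a to Idh3b was 0.449, 0.500 and 0.466 in WT and 0.546, 0.492 and 0.615 in LSD1-mKO. LSD1-mKO replicates 1 and 3 were above every WT mouse and LSD1-mKO replicate 2 was among them, a difference of 0.22 on the log2 scale (exact permutation p = 0.2, adjusted p = 0.65). For Idh3a to Idh3g the log2 difference was 0.13 (exact permutation p = 0.4), and for Idh3b to Idh3g it was -0.088 (exact permutation p = 0.3).

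The ratio of Idh1 to Idh2 separated the genotypes, at 0.0362, 0.0362 and 0.0433 in WT and 0.0331, 0.0273 and 0.0288 in LSD1-mKO. Each LSD1-mKO mouse was below each WT mouse, with a log2 difference of -0.37 (exact permutation test, p = 0.1, the smallest possible, adjusted p = 0.65). A ratio within a library does not move with the scaling between libraries.

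**Figure D3:**
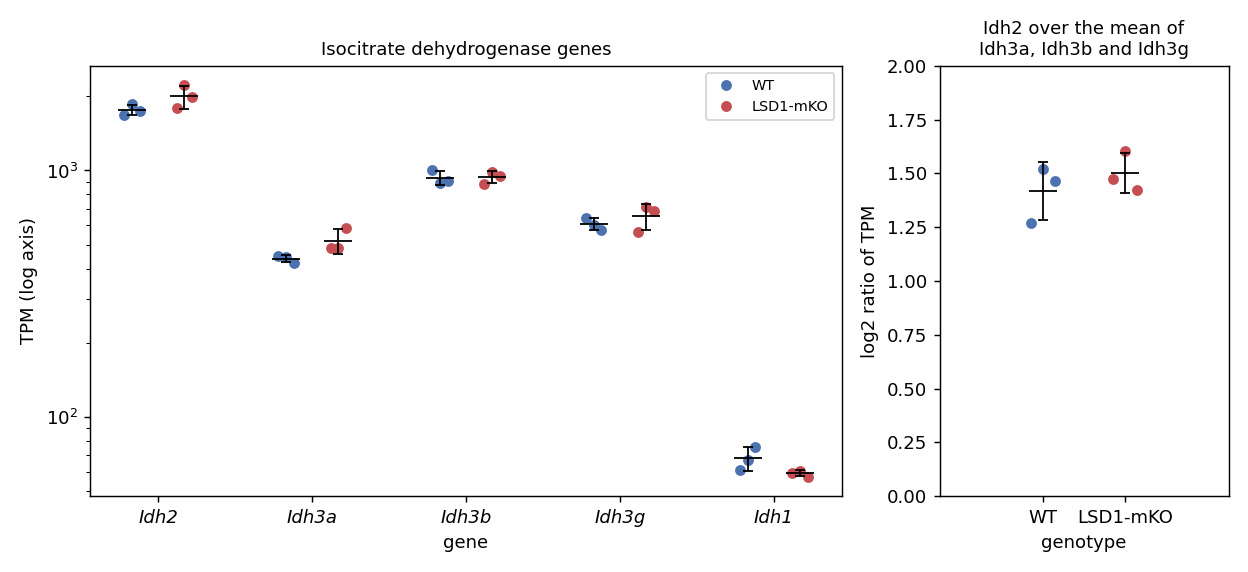
The left panel gives the TPM of 5 isocitrate dehydrogenase genes on a log axis, and the right panel gives the log2 ratio of Idh2 to the mean TPM of the Idh3 subunits, with 1 point per mouse (blue WT, red LSD1-mKO) and the mean ± SD in black. The ratios of the genotypes overlap, with means of 1.42 and 1.50.

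The next steps, from 2-oxoglutarate to succinate, had a fitted level above WT for each of the 5 genes counted here, and the median log2 fold change was 0.073. Sucla2 (chromosome 14, 73525319 to 73596142), the ADP-forming subunit of succinyl-CoA ligase, measured 640.4, 536 and 558 CPM in WT and 625, 676 and 681 CPM in LSD1-mKO. WT replicate 1 exceeded LSD1-mKO replicate 1 alone among the LSD1-mKO mice, and the log2 fold change was 0.19 (SE 0.10, edgeR adjusted p = 0.774). In TPM its groups did not overlap, and the same held for Got2 described below. Ogdh and Dlst, the E1 and E2 of the 2-oxoglutarate dehydrogenase complex, had log2 fold changes of 0.063 and 0.13. Suclg1, the shared alpha subunit, and Suclg2, the GTP-forming subunit, had 0.043 and 0.073.

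Sucla2 was the dominant of the nucleotide-specific subunits. Per length WT mice had 574 ± 11.9 TPM (SD, n = 3) of Sucla2 and 85.6 ± 7.70 TPM (SD, n = 3) of Suclg2. LSD1-mKO mice had 654 ± 34.3 and 89.4 ± 9.98 TPM (SD, n = 3). The ratio of the pair was 7.03, 6.07 and 7.11 in WT and 7.87, 7.14 and 7.01 in LSD1-mKO, so the ADP-forming subunit prevailed in each mouse. Its log2 difference between genotypes was 0.13 (exact permutation p = 0.3).

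From succinate to oxaloacetate, the 6 genes Sdha, Sdhb, Sdhc, Sdhd, Fh1 and Mdh2 had log2 fold changes from 0.0076 to 0.11, each smaller than its standard error. Succinate dehydrogenase is both a TCA cycle enzyme and complex II of the respiratory chain. Its membrane anchor Sdhc (chromosome 1, 171127165 to 171150603) had the highest of the 6 values, at 496, 399 and 389 CPM in WT and 422, 493 and 470.1 CPM in LSD1-mKO, and its highest mouse was WT replicate 1. Its flavoprotein Sdha and its iron-sulfur subunit Sdhb had 0.074 and 0.027, and Sdhd had 0.0076. The ratio of Sdha to Sdhb in TPM lay between 0.579 and 0.655 over all 6 mice. Fh1, which encodes fumarase, and Mdh2, the mitochondrial malate dehydrogenase, had log2 fold changes of 0.074 and 0.072.

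Mdh2 was among the most abundant genes of the list per length, with 1541, 1456 and 1371 TPM in WT and 1366, 1584 and 1633 TPM in LSD1-mKO. Its cytosolic partner Mdh1 measured 1816, 1736 and 1731 TPM in WT and 1738, 1766 and 1825 TPM in LSD1-mKO. The levels of both overlapped between genotypes, and Mdh1 was above Mdh2 in each mouse, with a ratio from 1.11 to 1.27. The log2 difference of this ratio was -0.054 (exact permutation p = 0.6).

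In the malate-aspartate shuttle, malate dehydrogenase and the aspartate aminotransferases work as cytosolic and mitochondrial pairs. Got2 (chromosome 8, 95864134 to 95888547), the mitochondrial aminotransferase, measured 1184, 979 and 1020 CPM in WT and 1197, 1157 and 1245 CPM in LSD1-mKO. The groups overlapped through WT replicate 1 and LSD1-mKO replicate 2, and the log2 fold change was 0.18 (SE 0.11, edgeR adjusted p = 0.781). In TPM all LSD1-mKO mice were higher, at 955, 919.7 and 907 in WT and 1037, 1010.1 and 1089 in LSD1-mKO. Got1, the cytosolic form, had a log2 fold change of -0.032 (SE 0.13), which was 0.081 without WT replicate 1.

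The ratio of Got1 to Got2 was 0.792, 0.714 and 0.797 in WT and 0.702, 0.625 and 0.669 in LSD1-mKO. Every LSD1-mKO mouse was below every WT mouse, closely so for WT replicate 2 and LSD1-mKO replicate 1, and the log2 difference was -0.21 (exact permutation test, p = 0.1, the smallest possible, adjusted p = 0.65). Of the 13 ratios, Got1 to Got2 and Idh1 to Idh2 were those whose groups did not overlap. In both the cytosolic enzyme was lower against the mitochondrial one in LSD1-mKO. Groups of 3 and 3 mice that do not overlap give p = 0.1 in this exact permutation test, and 13 ratios were examined. Got2 and Idh2 are also in the study's cluster drawn from these mice as upregulated, so the shared direction is not independent evidence. The other cytosolic to mitochondrial ratios, Mdh1 to Mdh2 (log2 difference -0.054) and Me1 to Me2 (0.044), overlapped, and the latter ran the other way.

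The carriers of the shuttle had log2 fold changes of 0.10 for Slc25a11, the malate and 2-oxoglutarate carrier, and 0.062 for Slc25a12, the aspartate and glutamate carrier of muscle and brain. Slc25a13, the form of that carrier typical of liver, was the least abundant gene of the list, with 1.89, 2.67 and 2.11 TPM in WT and 2.13, 2.66 and 2.51 TPM in LSD1-mKO. The genotypes overlapped. Its lowest library held 24 counts, and its log2 fold change of 0.14 had a standard error of 0.22. Slc25a12 exceeded it 61.0 to 91.8 times over the 6 mice.

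Malic enzymes convert malate to pyruvate and, in the case of Me1, give NADPH in the cytosol. Me1 (chromosome 9, 86581371 to 86695953) measured 104, 94.8 and 103 CPM in WT and 105, 133 and 132 CPM in LSD1-mKO. Every LSD1-mKO mouse was above every WT mouse, but LSD1-mKO replicate 1 was within 1 CPM of WT replicate 1. The groups overlapped in TPM (64.6, 68.4 and 70.1 in WT, 70.0, 89.6 and 88.6 in LSD1-mKO) and with the library size alone. The log2 fold change of 0.30 was the highest of the 33 (SE 0.11, edgeR unadjusted p = 0.0255, adjusted p = 0.718), and the mean of LSD1-mKO was 123% of the WT mean. With 1 mouse left out its log2 fold change lay between 0.24 and 0.40.

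The mitochondrial malic enzymes were low. Me2 measured 3.73, 6.57 and 6.22 TPM in WT and 6.15, 5.64 and 7.19 TPM in LSD1-mKO, where WT replicate 1 was the lowest mouse and the other values overlapped. Its log2 fold change of 0.21 (SE 0.20) was 0.051 without WT replicate 1. Me3 had a log2 fold change of -0.043 (SE 0.13), and 0.079 without WT replicate 1.

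Levels per length spanned a wide range over the 33 genes. Idh2 led with 1683, 1852 and 1751 TPM in WT and 1790.03, 2216 and 1986 TPM in LSD1-mKO, followed by Mdh1, Mdh2 and Sdhb, whose means over the 6 mice were 1769, 1492 and 1406 TPM. In WT the means of Idh2 and Mdh1 differed by less than their spread, at 1762 ± 85.3 and 1761 ± 47.3 TPM (SD, n = 3). The lowest were Aco1, Me2 and Slc25a13 at 20.7, 5.92 and 2.33 TPM. Summed over the 33 genes, the level was 18688, 18087 and 17291 TPM in WT and 17763, 19448 and 20087 TPM in LSD1-mKO. LSD1-mKO replicates 2 and 3 had the highest sums, while LSD1-mKO replicate 1 lay among the WT mice.

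Subunits of 1 complex were not level with each other. In the PDH complex the means over the 6 mice were 962 TPM for Pdha1, 743 for Pdhb, 420 for Dld, 181 for Dlat and 94.6 for Pdhx. The order of close genes depended on the transcript length assumed. With merged exons Mdh1 was first and Idh2 second. The ratio of Mdh1 to Mdh2 was then 2.40 in place of 1.19, that of Me1 to Me2 30.3 in place of 12.9, the ratio of Pdha1 to Pdhb was 2.51 in place of 1.29, and the ratio of Got1 to Got2 was 1.10 in place of 0.714, so which aminotransferase was more abundant could not be told.

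**Figure D4:**
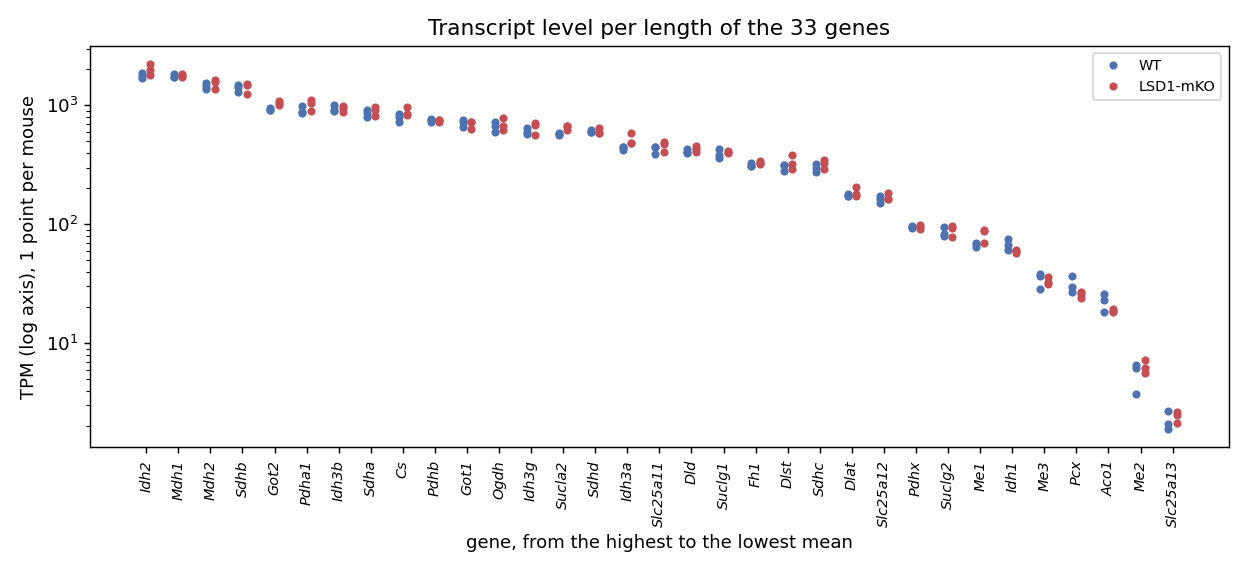
The TPM of the 33 genes in each mouse is shown on a log axis, ordered by the mean over the 6 mice (blue WT, red LSD1-mKO). Means run from 1880 TPM for Idh2 to 2.33 TPM for Slc25a13, and the genotypes lie close together beside the range between genes.

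Some values may hold reads of other genes. Exons of Pdha1, Idh3b, Mdh1, Got2, Slc25a11, Me1 and Me3 overlap an exon of a gene on the opposite strand, and whether reads were counted by strand is not given in the sources used here. The shared stretch was longest for Pdha1 (603 bases with Map3k15, which had 32.8 counts over the 6 libraries). Rnf167 shared 189 bases with Slc25a11 and had 2829 counts over the 6 libraries. How many reads were counted for the other gene was not tested.

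A wider list of 45 genes of the same pathways, such as regulators of PDH, pyruvate carriers and assembly factors, gave a similar picture. Of these, 42 were tested and Csl, Slc25a18 and Slc25a21 were not. A higher fitted level in LSD1-mKO was found for 29 of the 42 (45.2% of all tested genes), the median log2 fold change was 0.059, 0 passed the threshold in edgeR and in DESeq2, and at an unadjusted p under 0.05 edgeR gave 1 higher (3.52% of all tested genes) and 0 lower (2.88%). The higher gene was Pdp2 (chromosome 8, 104591451 to 104599026), a phosphatase that reactivates PDH, with 7.11, 8.37 and 5.86 CPM in WT and 10.7, 9.12 and 9.50 CPM in LSD1-mKO. Its groups did not overlap, and its log2 fold change of 0.46 (SE 0.17, edgeR adjusted p = 0.726) was the highest of the wider list. Among the other regulators of PDH, Pdp1 had a lower fitted level (-0.29, SE 0.18). Pdk1 (0.18), Pdk2 (0.10), Pdk3 (0.41), Pdk4 (0.39) and Pdpr (0.054) had higher ones, and the groups overlapped for each of these genes. Besides Pdp2, the groups did not overlap for Mpc1, which was higher in LSD1-mKO (log2 fold change 0.13, SE 0.091), and for Pck2 (-0.30, SE 0.14) and Slc25a10 (-0.27, SE 0.16), which were lower. Of the 42 genes, 2 were thus higher without overlap (6.63% of all tested genes) and 2 lower (6.1%), which is near the background. The lowest of the wider list was Pck1, cytosolic phosphoenolpyruvate carboxykinase, at -0.33 (SE 0.33). Pck1 measured 27.4, 16.7 and 50.2 CPM in WT and 26.0, 23.7 and 25.7 CPM in LSD1-mKO. WT mice thus lay on both sides of the LSD1-mKO mice. Without WT replicate 1 the wider list had 43 tested genes, and 31 had a higher fitted level (47.4% of all tested genes). The median log2 fold change was then 0.13. At an unadjusted p under 0.05 edgeR gave 3 as higher (6.43% of all tested genes) and 2 as lower (7.98%). In that fit 11 were higher without overlap (15.9%) and 4 lower (17.9%).

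Esrrg, the gene of estrogen-related receptor gamma, a regulator of oxidative genes, measured 147, 125 and 116 CPM in WT and 267, 208 and 282 CPM in LSD1-mKO. Each LSD1-mKO mouse was above each WT mouse, with a log2 fold change of 0.96 (SE 0.14, edgeR adjusted p = 0.162; DESeq2 adjusted p = 1.82e-06). The receptors of this family are known to bind the sequence AAGGTCA, so promoters of the 33 genes were searched for it. RefSeq windows (GRCm38.p6) from 250 bases before to 50 bases after the gene start were at hand for 30 of the 33 genes, and those of Idh3a, Sdhc and Me2 were not matched. AAGGTCA was found on either strand for 3 of 30 genes (10%), Ogdh, Sdhd and Got1, against 5.38% of the 27025 genes with a window. The shorter AGGTCA, which every AAGGTCA also holds, was found for 9 of 30 (30.0%), against 18.1% of all genes with a window. These 9 were Pcx, Idh3g, Ogdh, Sucla2, Sdhb, Sdhd, Fh1, Got1 and Got2. The genes with AAGGTCA had log2 fold changes of 0.063, 0.0076 and -0.032. A match is a description of the sequence and not a bound site, and no match says only that these letters are not in the window.

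Of the isocitrate dehydrogenase genes with a window (Idh1, Idh2, Idh3b and Idh3g), Idh3g held the shorter sequence, once and on the strand opposite to the gene, starting at base 15 after the gene start. Its window (RefSeq, GRCm38.p6, chrX:73786848-73787147, minus strand) is shown to place the match, which is in capitals, within the promoter.
Idh3g: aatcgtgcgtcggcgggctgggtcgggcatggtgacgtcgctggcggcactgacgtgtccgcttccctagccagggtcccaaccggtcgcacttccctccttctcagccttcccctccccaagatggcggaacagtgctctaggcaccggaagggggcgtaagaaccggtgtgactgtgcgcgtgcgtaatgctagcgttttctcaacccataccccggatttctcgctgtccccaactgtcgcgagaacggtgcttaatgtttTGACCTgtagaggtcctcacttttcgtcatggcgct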

How the data were processed

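By the submitters' notes, single-end reads of 75 bases from poly(A) RNA were aligned with STAR (mm10; versions not given in the sources used here). The authors provided estimated counts that were not normalized, 1 column for each mouse, in which 8.33% to 9.94% of the values of a library are not whole numbers. The counting tool and annotation are not given in the sources used here. A second deposited table holds the authors' own DESeq2 comparison (mean, log2 fold change, standard error, p-value and adjusted p-value per gene) and was not used. Columns were matched to mice by the numbers in their headings and the sample titles.

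Counts were rounded and fitted for all genes together in edgeR 4.0.16 (TMM, filterByExpr by genotype, quasi-likelihood test, R 4.3.3), with a threshold of 0.05 on Benjamini-Hochberg adjusted p-values. The script was tested on simulated data. The standard errors given with edgeR values were derived from this test, as the absolute log2 fold change divided by the square root of its F statistic. DESeq2 1.42.0 and limma 3.58.1 (voom) were alternatives, as were DESeq2 size factors, upper-quartile factors, the library size alone, no filter, at least 10 counts in every library, a replicate block and each mouse left out in turn. DESeq2 gave no p-value for 1 gene that lies outside the list.

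For TPM, the lengths were those of the longest coding transcript in GENCODE vM21, found for genes that hold 99.7% of all counts. Merged exons, the mean of log2 TPM and the lowest Idh3 subunit were alternatives. The APPRIS principal transcript and Idh2 against single Idh3 subunits were chosen after seeing the data. Ratios were compared over the 20 ways to choose 3 of 6 mice.

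The genes and lists were chosen with earlier results of these data known. Values in every mouse are given for the 5 isocitrate dehydrogenase genes, for any of the 33 at an unadjusted p under 0.05 or without overlap, and for the 3 most and 3 least abundant per length. The per-mouse CPM of Pdha1, Pcx, Cs, Sucla2, Sdhc and Got2, and the values of Mpc1, Pck2, Slc25a10, Actn3 and Hba-a1, are additions chosen after they were seen. A result on 1 further gene is not reported here.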

Additional observations from a re-analysis of the deposited data

How the results depend on the processing

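The number of genes called stayed 0 of 33 under every alternative run. The count with a higher fitted level lay between 21 and 30, and the median log2 fold change between 0.019 and 0.17. For the 33 genes, Kdm1a, Esrrg and Pdp2, the sign and the call were unchanged in 189 of 216 comparisons with 1 mouse left out and in 281 of 288 others. Depth limits Slc25a13 and Me2 most, with 24 and 40 counts in their lowest library. With 3 mice per group, a log2 difference near 0.1 is within the standard error of most of these genes.

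Counts at an unadjusted p under 0.05 moved. With the library size alone 4 genes were higher (2.93% of all tested genes), namely Idh3a, Sucla2, Got2 and Me1, and the 1 lower gene (3.12%) was Pcx in place of Aco1. With 1 mouse left out from 0 to 8 were higher (2.08% to 6.43% of all tested genes). With DESeq2 (1.78% of all tested genes) and without a filter (2.66%) 0 were lower, and with 1 mouse left out from 0 to 2 were (1.7% to 7.98% of all tested genes). LSD1-mKO mice were all above WT for 3 genes with upper-quartile factors (6.74% of all tested genes), 3 with the library size alone (5.37%), 2 with at least 10 counts in every library (6.83%), and 1 to 22 with 1 mouse left out (8.93% to 15.9%). The cause was not tested.

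With the replicate block 0 genes were higher (2.51% of all tested genes) and 0 lower (1.78%) at an unadjusted p under 0.05, and Kdm1a, at a log2 fold change of -1.23, had an edgeR adjusted p of 0.299. Deviations of WT and LSD1-mKO mice that share a number correlated at -0.364, -0.097 and -0.146, which gives no sign that numbers mark pairs. With 1 mouse left out Kdm1a ranged from -1.30 to -1.17 and lost its call in 4 of 6 fits, which have fewer samples.

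Differences near 0 changed sign. With the library size alone the log2 fold change was -0.0080 for Pdhb, -0.016 for Pdhx and -0.010 for Sdhd, and with upper-quartile factors it was -0.0019 for Pdhx. With 1 mouse left out it ranged from -0.034 to 0.093 for Pdhb, -0.053 to 0.066 for Pdhx, -0.067 to 0.14 for Idh3b, -0.024 to 0.20 for Ogdh and -0.026 to 0.19 for Suclg1. It ranged from -0.037 to 0.11 for Sdhb, -0.044 to 0.088 for Sdhd, -0.041 to 0.11 for Mdh1, -0.13 to 0.081 for Got1 and -0.17 to 0.079 for Me3. Among genes that kept their sign, it ranged from 0.025 to 0.20 for Slc25a11 and 0.0018 to 0.18 for Slc25a12. The range was 0.024 to 0.22 for Dlst, 0.015 to 0.17 for Dld, 0.011 to 0.16 for Suclg2 and 0.017 to 0.19 for Sdha. For Fh1 and Mdh2 it was 0.013 to 0.17 and 0.019 to 0.18. Esrrg passed the threshold in DESeq2 (0.97) and in edgeR without a filter (0.98).

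The log2 difference of the Idh2 to Idh3 ratio ranged from 0.0091 to 0.14 with 1 mouse left out and was -0.056 with the lowest Idh3 subunit, which is Idh3a in each mouse, and with Idh3a alone. With 1 mouse left out the log2 difference ranged from -0.22 to 0.078 for Slc25a12 to Slc25a13, from -0.097 to 0.27 for Me1 to Me2 and from -0.51 to 0.036 for Me3 to Me2. Other ratios kept their sign, with 0.053 to 0.17 for Sucla2 to Suclg2 and -0.12 to -0.021 for Mdh1 to Mdh2. Within the Idh3 complex the range was 0.14 to 0.30 for Idh3a to Idh3b, 0.078 to 0.24 for Idh3a to Idh3g and -0.14 to -0.059 for Idh3b to Idh3g. The cause was not tested.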
